A study of Mus musculus with 2 samples.

Results

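The genes described here are 36 mouse genes grouped as MAPK phosphatases and early feedback genes, out of 47643 genes in the deposited table. The name feedback genes stands below for the whole list, although not all of its phosphatases act on MAP kinases. The 36 genes were chosen by symbol, with no measured value in the rule, and all were found in the table. The list holds 9 MAPK phosphatases, 9 other dual-specificity phosphatases, 7 Sprouty, Spred and Errfi1 genes, 3 Ier genes, 3 Zfp36 genes, 2 Btg genes and 3 Gadd45 genes. RNA was sequenced from monocytes of the bone marrow of C57BL/6 mice (wild type, aged 6 weeks) and from macrophages obtained by differentiating bone marrow monocytes with lysophosphatidic acid (LPA), a phospholipid that signals through G protein-coupled receptors. Each group is 1 library of wild-type cells, and the labels do not say how many animals went into it. A culture that lacked LPA is not among the samples, so the contributions of LPA, of time in culture and of differentiation cannot be told apart.

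MAP kinases (ERK, JNK and p38) carry signals from surface receptors to the nucleus, where they switch on immediate early genes. Several of the genes switched on in this way encode brakes on the same pathway. MAPK phosphatases remove the activating phosphates from the kinases, Sprouty and Spred proteins act upstream at Ras and Raf, and Zfp36 proteins speed the decay of short-lived messenger RNAs. In macrophages these brakes are best known for limiting the output of inflammatory cytokines.

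Levels are unique exon reads scaled to a library total of 1000000 exon reads (CPM), from 12473180 reads in monocytes and 16726342 reads in macrophages. The floor for comparing a gene was 5 CPM in either library, which 10407 genes reached. A gene was called higher or lower at a 2-fold ratio of CPM + 1. A single library per group allows neither a replicate check nor a test, and the 95% intervals given beside folds cover counting error only. The libraries also differed in their cells. Monocyte and macrophage markers had reads in both libraries for 7 of 7 genes, with a summed level of 12568 CPM in monocytes against 16749 CPM in macrophages, most of it Lyz2. Of these 7, Csf1r, Adgre1 and Cd68 were higher in macrophages, Ccr2 and Ly6c2 were lower, and Lyz2 and Spi1 lay within 2-fold. Of 8 neutrophil markers 7 were lower in macrophages, whereas Cxcr2 was higher (18.3 CPM in monocytes and 167.5 CPM in macrophages). The summed level of the 8 was 26024 CPM in monocytes against 5408 CPM in macrophages. The summed level of 5 eosinophil, basophil and mast cell markers was 2334 and 354 CPM. Of these 5, 3 were lower in macrophages, and Prss34 and Cpa3 lay within 2-fold. The summed level of 5 B cell markers was 51.3 and 13.5 CPM and that of 4 erythroid markers 76.6 and 0.0598 CPM. The 4 T and NK cell markers summed to 108.3 and 2.45 CPM, 106.9 and 1.49 CPM of it Nkg7. Stromal markers (5) summed to 1766 and 972.5 CPM. Col1a1 and Col1a2 were lower in macrophages, Postn (0.802 and 92.2 CPM) and Col3a1 (0.641 and 10.9 CPM) were higher, and Pdgfrb lay within 2-fold. Endothelial markers (3) summed to 67.2 and 34.4 CPM, of which Pecam1 made up 62.1 and 30.3 CPM. Cdh5 (20 and 2 reads) and Kdr (44 and 66 reads) were under the floor. No marker had 0 reads in monocytes, whereas Dntt, Car1, Klf1 and Slc4a1 had 0 in macrophages. The part of these cells in the values below was not tested, and in bulk RNA fewer cells of a type and less RNA per cell cannot be told apart.

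Of the 36 genes, 32 passed the floor of 5 CPM. Among these, 6 were at least 2-fold higher in the LPA-derived macrophages (18.8%, against 13.8% of all genes past the floor) and 12 were at least 2-fold lower (37.5%, against 19.9% of all genes). The higher genes were Dusp1, Dusp3, Dusp4, Dusp23, Spred1 and Zfp36l1. The lower genes were Dusp2, Dusp5, Dusp10, Dusp16, Dusp18, Spry1, Errfi1, Ier2, Ier3, Ier5, Btg1 and Btg2. The remaining 14 lay within 2-fold. The median log2 ratio of the 32 was -0.60, beside -0.23 for all genes past the floor. After centring on the median of all genes 6 members were higher and 8 lower, against 17.4% and 14.6% of all genes. By the signed fold of the authors' deposited table, 7 members were higher and 8 lower, against 16.2% of all genes in either direction. At 4-fold 1 member was higher (Dusp4, against 5.92% of all genes) and 5 were lower (against 6.7%). Errfi1, Ier5, Btg1 and Btg2, all lower by little more than 2-fold, lay within 2-fold under both of these scalings.

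**Figure D1:**
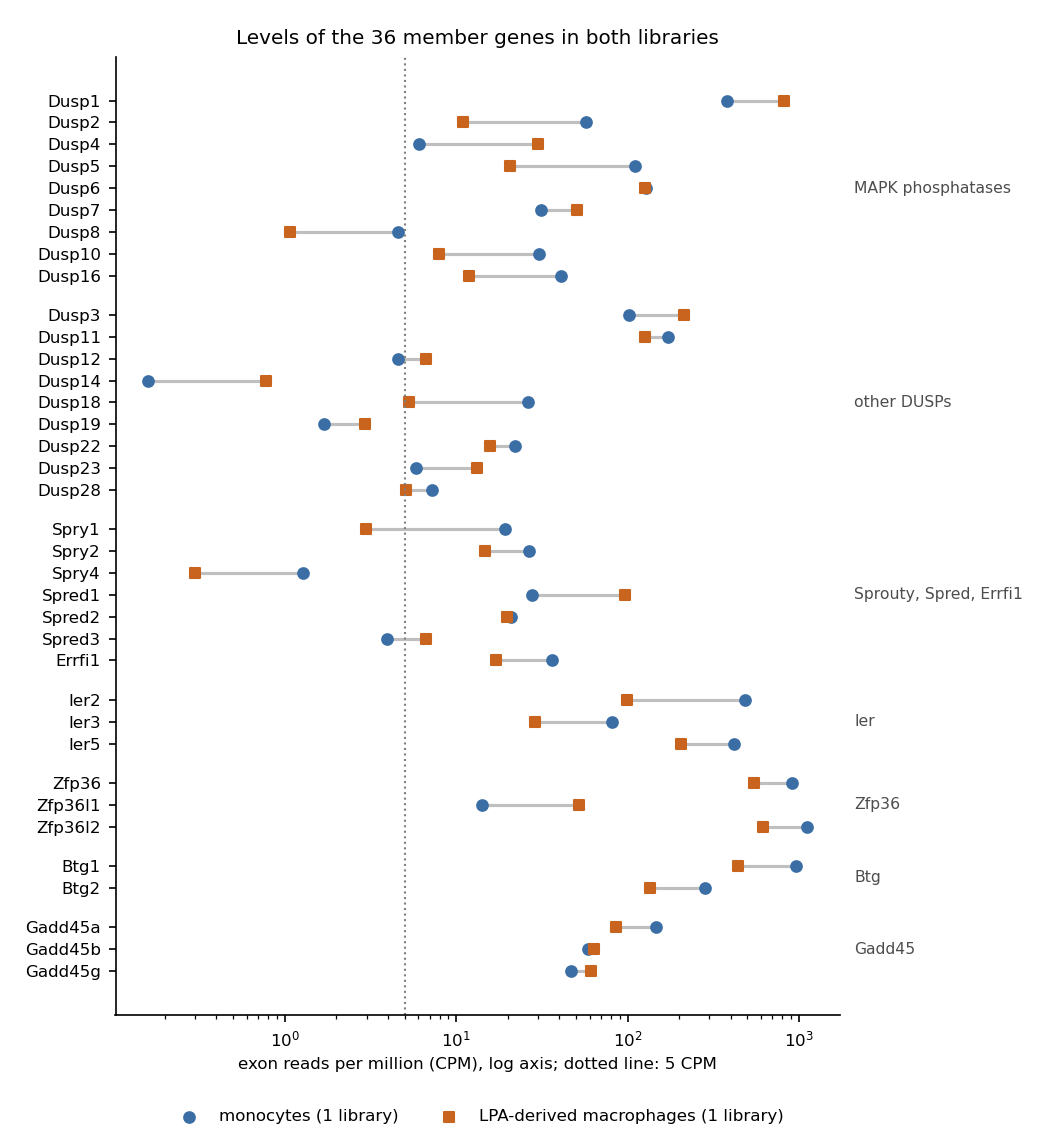
Level of each of the 36 genes in CPM (log axis) in the monocyte library (circles) and the LPA-derived macrophage library (squares), grouped by role, with a dotted line at 5 CPM. Lines join both values of a gene; Dusp1 runs from 379 to 819 CPM and Ier2 from 481 to 98.9 CPM, and 4 genes (Dusp8, Dusp14, Dusp19 and Spry4) lie left of the dotted line in both libraries.

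The MAPK phosphatases went in opposite directions. Of 9 members, 8 passed the floor, 2 were higher in macrophages, 4 were lower and 2 lay within 2-fold (median log2 ratio -0.86). Dusp1 encodes MKP-1, a nuclear phosphatase of p38 and JNK that restrains cytokine production in macrophages (chromosome 17, 26505590 to 26508519). It had 4728 exon reads in monocytes and 13700 in macrophages, that is 379 and 819 CPM. The macrophage library was therefore the higher one, 2.16-fold (95% counting interval 2.09 to 2.23). Reads that span an exon junction, 754 and 1986, gave a ratio of 1.96 when scaled by exon totals and a log2 ratio of 1.04 when scaled by junction totals. Dusp4, which encodes the related nuclear phosphatase MKP-2 (chromosome 8, 34807297 to 34819894), was also higher. It went from 76 reads (6.09 CPM) in monocytes to 501 reads (29.95 CPM) in macrophages, 4.92-fold (3.86 to 6.34), and its ratio exceeded that of 94.6% of all genes past the floor.

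The lower phosphatases were 2 nuclear ones and 2 that act on JNK and p38. Dusp2 encodes PAC-1, a nuclear phosphatase found mainly in blood cells (chromosome 2, 127336159 to 127338376). It had 710 reads (56.9 CPM) in monocytes and 184 reads in macrophages, 5.17-fold lower (4.39 to 6.12). Dusp5 encodes a nuclear phosphatase specific for ERK (chromosome 19, 53529109 to 53542431). It stood at 110.7 CPM (1381 reads) in monocytes and 20.7 CPM (347 reads) in macrophages, 5.34-fold lower (4.74 to 6.02). Only 4.62% of all genes past the floor had a lower ratio than Dusp5. Dusp10 and Dusp16, which encode the JNK and p38 phosphatases MKP-5 and MKP-7, followed the same direction. Dusp10 had 30.4 CPM in monocytes against 7.95 CPM in macrophages, 3.82-fold lower (3.13 to 4.69). Dusp16 had 41.0 and 11.9 CPM, 3.45-fold lower (2.92 to 4.08). Dusp8, of the same JNK and p38 group, had 57 reads in monocytes and 18 in macrophages and did not reach the floor.

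The cytoplasmic ERK phosphatases lay within 2-fold. Dusp6 encodes MKP-3, whose transcription is a usual readout of ERK activity (chromosome 10, 99263231 to 99267488). It stood at 127.9 CPM in monocytes against 126.6 CPM in macrophages, and the interval of its ratio reached from 0.946-fold to 1.08-fold lower. After centring on the median of all genes its log2 ratio was 0.22, so that its sign depends on scaling while its size stays small. Dusp7, its cytoplasmic relative, had 31.2 and 50.8 CPM, 1.63-fold higher in macrophages (1.44 to 1.84), and passed 2-fold only in the authors' deposited table, whose fold is 2.02.

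Compared per exon length, the phosphatases of the macrophage library were dominated by Dusp1. Summed RPKM (exon reads divided by exon length and library total, as deposited) of the 9 genes was 241 in monocytes and 346 in macrophages. Dusp1 made up 48.9% of that sum in monocytes and 77.2% in macrophages. Dusp6 came next in both libraries, with an RPKM of 38.4 in monocytes and 39.9 in macrophages. The library total in the deposited RPKM is not the exon total used for CPM. Ratios of RPKM are therefore shifted slightly toward macrophages, and Dusp6 is slightly lower there by CPM but higher by RPKM. Dusp5, nearly level with Dusp6 in monocytes at 37.6 RPKM, stood at 7.39 RPKM in macrophages. Dusp2, Dusp5, Dusp10 and Dusp16 each took a smaller share of the sum in macrophages, for example 15.6% and 2.13% for Dusp5, whereas the share of Dusp4 was 0.774% and 2.78%.

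**Figure D2:**
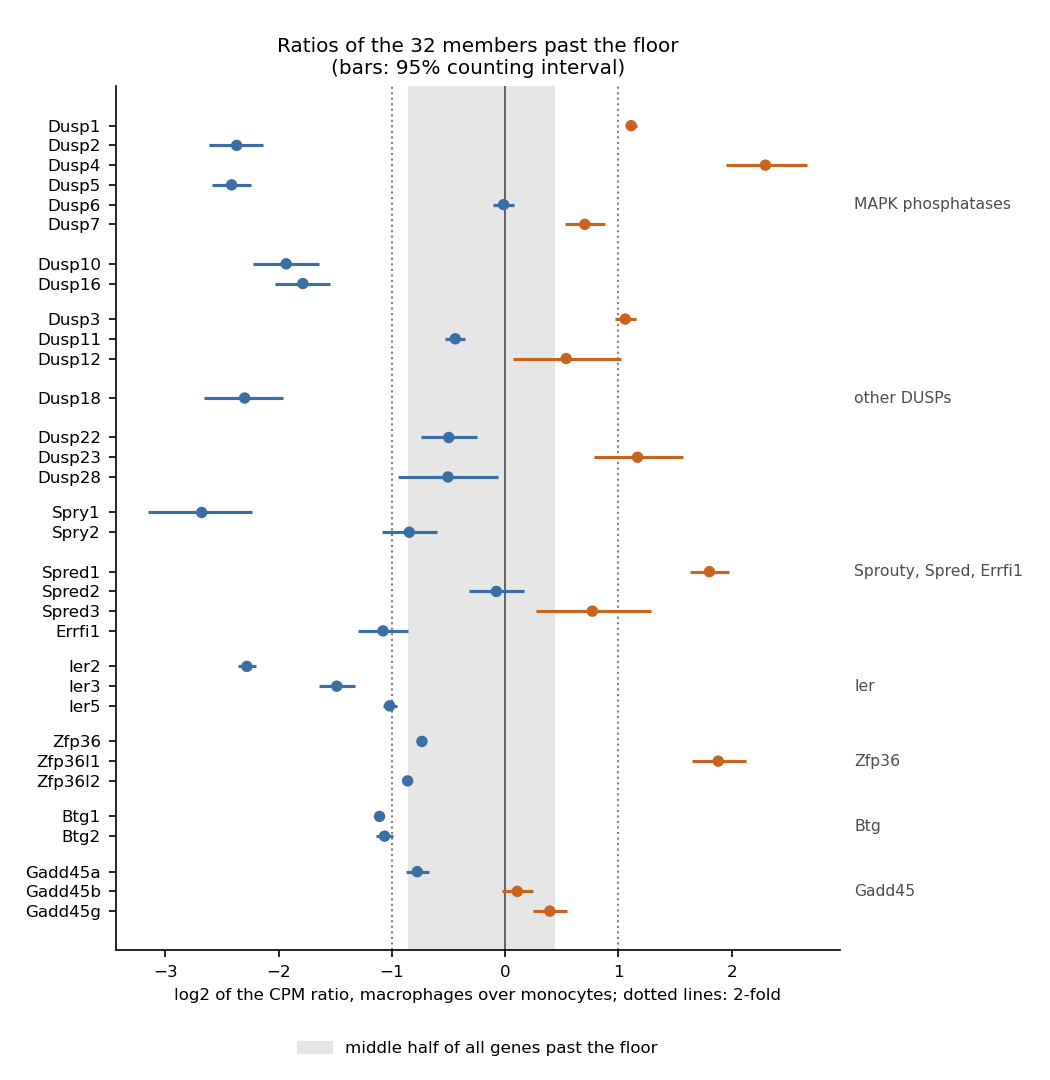
Log2 of the CPM ratio of macrophages over monocytes for the 32 genes past the floor; points are ratios, horizontal bars their 95% counting intervals, dotted lines 2-fold, and the grey band holds the middle 50 percent of all genes past the floor. Dusp4, Zfp36l1 and Spred1 lie farthest right (4.92-fold, 3.68-fold and 3.49-fold) and Spry1, Dusp5 and Dusp2 farthest left.

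Promoter sequence is shown for a higher phosphatase gene (Dusp1), a lower one (Dusp5) and Btg2, because CREB and SRF are known to act at genes of this kind. RefSeq start sites (GRCm38.p6) were found for 31 of the 36 genes, and the window reached from 250 bases before the start to 50 after it. In the stretches below, capitals mark the match, each read 5′ to 3′ on the strand of the gene. The Dusp1 stretch (chr17:26508582-26508641, minus strand) holds a cAMP response element, TGACGTCA, and that of Dusp5 (chr19:53529048-53529107, plus strand) holds adjoining CArG boxes, the binding motif of SRF. Btg2 (chr1:134079288-134079347, minus strand) holds TGACGTCA as well.
Dusp1: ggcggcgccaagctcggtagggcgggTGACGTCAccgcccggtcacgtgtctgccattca
Dusp5: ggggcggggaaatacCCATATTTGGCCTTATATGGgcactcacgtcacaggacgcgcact
Btg2: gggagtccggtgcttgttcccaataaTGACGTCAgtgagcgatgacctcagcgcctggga

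The motif TGACGTCA, searched on both strands, was in the windows of 4 of the 31 genes (12.9%), Dusp1, Dusp8, Errfi1 and Btg2, and in 3.83% of 8067 genes past the floor. Among these 4, Dusp1 was higher in macrophages, Errfi1 and Btg2 were lower and Dusp8 was under the floor, so the match went with no common direction. A CArG box was in 2 windows (6.45%, against 1.5% of the 8067 genes), those of Dusp5 and Zfp36. The ETS core CCGGAA was in 4 windows (12.9%, against 33.6%), the AP-1 motif TGANTCA in 1 (3.23%, against 6.1%) and an NF-kappaB motif in 2 (6.45%, against 6.22%). CCGGAA was in the windows of Dusp14, Spry2, Zfp36 and Gadd45a, TGANTCA in that of Zfp36l1 and the NF-kappaB motif in those of Dusp22 and Ier3. The 31 genes include Dusp8 and Dusp14, which did not reach the floor that the 8067 genes passed. A match is a description of these letters and not a site of binding.

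The other dual-specificity phosphatases, whose substrates are only partly MAP kinases, differed less. Of 9 genes 7 passed the floor, 2 were higher, 1 was lower and 4 lay within 2-fold (median log2 ratio -0.43). The higher and lower ones made up 28.6% and 14.3% of the 7, against 13.8% and 19.9% of all genes. Dusp3 encodes VHR, a small phosphatase able to act on ERK and JNK (chromosome 11, 101971143 to 101987013). It had 102.5 CPM in monocytes against 213.7 CPM in macrophages, 2.08-fold higher (1.95 to 2.22). Its junction reads, scaled by exon totals, gave a smaller ratio of 1.46, from 107 and 209 reads. Dusp23 had 5.85 and 13.2 CPM, 2.25-fold higher (1.72 to 2.97), with a junction ratio of 1.38 from 14 and 26 reads. Neither gene passed 2-fold with junction reads.

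Dusp18 was the lower gene, at 26.2 CPM (327 reads) in monocytes and 5.32 CPM (89 reads) in macrophages, 4.93-fold (3.89 to 6.30). Dusp11 encodes a phosphatase of RNA rather than of MAP kinases, and stood at 170.9 and 125.9 CPM. Dusp22, which acts in the JNK pathway, had 22.1 CPM in monocytes against 15.7 CPM in macrophages. Dusp12 had 57 and 111 reads and Dusp28 had 90 and 85 reads, both within 2-fold. Dusp14 (2 and 13 reads) and Dusp19 (21 and 49 reads) were under the floor, and an exon of Dusp19 overlaps one of Nup35 on the same strand. Summed RPKM of the 9 genes was 62.6 in monocytes and 78.6 in macrophages, and Dusp3 alone made up 29.4% and 51.1% of it.

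Of the Sprouty and Spred genes, 1 of each family passed 2-fold, Spry1 lower in macrophages and Spred1 higher. Sprouty proteins inhibit Ras and ERK signalling downstream of receptor tyrosine kinases. Spry1 (chromosome 3, 37639947 to 37644598) had 239 reads (19.2 CPM) in monocytes and 50 reads (2.99 CPM) in macrophages, 6.41-fold lower (4.71 to 8.88). By the plain CPM ratio this was the largest fold toward monocytes among the 32 genes past the floor, while by the log2 ratio of CPM + 1 Dusp5 (-2.36) lay just beyond Spry1 (-2.34). Spry2 had 26.5 and 14.7 CPM, 1.80-fold lower (1.52 to 2.13), and Spry4 had 16 and 5 reads, under the floor.

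Spred proteins inhibit Raf activation and recruit the Ras inhibitor neurofibromin to the membrane. Spred1 (chromosome 2, 117121374 to 117182279) stood at 27.7 CPM (346 reads) in monocytes and 96.8 CPM (1619 reads) in macrophages, 3.49-fold higher (3.11 to 3.93). Its junction reads, 38 and 133, gave a smaller ratio of 2.61 when scaled by exon totals. Spred2 had 20.8 and 19.7 CPM, and Spred3 had 3.93 and 6.70 CPM, both within 2-fold. Other reads put Spred2 lower in macrophages, with log2 ratios of -0.92 from junction reads and -0.61 from gene reads, and its fold in the authors' deposited table was -1.30, the sign marking higher monocytes. An exon of Spred3 overlaps one of Ggn on the other strand, which had 27 and 20 reads, and no source used here says whether strand was used in counting. Errfi1 encodes MIG6, an inhibitor of the EGF receptor (chromosome 4, 150853919 to 150868892). It stood at 36.2 CPM in monocytes against 17.2 CPM in macrophages, 2.11-fold lower (1.82 to 2.46). Per exon length, Spred1 made up 10.5% of the summed RPKM of these 7 genes in monocytes and 43.8% in macrophages, while the sum itself was 32.7 and 28.7.

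All Ier genes were at least 2-fold lower in macrophages (3 of 3, against 19.9% of all genes, median log2 ratio -1.46). These are immediate early response genes that MAP kinases and other stimuli induce within minutes. Ier2, which encodes a nuclear protein (chromosome 8, 84661331 to 84662852), had 5999 reads (481 CPM) in monocytes and 1655 reads (98.9 CPM) in macrophages, 4.86-fold lower (4.60 to 5.14). Ier3, which encodes the survival factor IEX-1 (chromosome 17, 35821684 to 35822923), had 81.1 and 28.9 CPM, 2.80-fold lower (2.51 to 3.13). Ier5, an activator of the heat shock factor HSF1, had 415.2 and 204.7 CPM, 2.03-fold lower (1.94 to 2.12). After centring on the median of all genes Ier5 lay within 2-fold. The other 2 Ier genes stayed lower, against 14.6% of all genes. Summed RPKM of the 3 genes was 432 in monocytes and 135 in macrophages.

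Among 15 other genes that cell isolation is known to induce, all past the floor, 10 were at least 2-fold lower in macrophages (66.7%, against 19.9% of all genes), 5 lay within 2-fold and none was higher (median log2 ratio -1.28). Those within 2-fold were Fos, Egr1, Hspe1, Hspa8 and Hsp90ab1. The summed level of the 15 genes was 13024 CPM in monocytes against 4534 CPM in macrophages. No source used here describes the time between isolation and lysis. Its part in the levels of the Ier genes and of the other feedback genes was not tested.

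The Zfp36 genes encode proteins that bind AU-rich elements in the 3′ untranslated region and bring the CCR4-NOT deadenylase to the RNA. Zfp36 (tristetraprolin; chromosome 7, 28376784 to 28380253) and Zfp36l2 (chromosome 17, 84183931 to 84187947) were abundant in both libraries and lower in macrophages by less than 2-fold. Zfp36 had 11288 reads (905 CPM) in monocytes and 9092 reads (543.6 CPM) in macrophages, 1.66-fold lower (1.62 to 1.71). Zfp36l2 had 1114 and 612.8 CPM, 1.82-fold lower (1.77 to 1.86). Zfp36l1 (chromosome 12, 80107760 to 80113013) went the other way, from 176 reads (14.1 CPM) to 869 reads (52.0 CPM), 3.68-fold higher (3.13 to 4.35). Its junction reads, 56 and 165, gave a smaller ratio of 2.20 when scaled by exon totals. Zfp36l1 nevertheless remained the smallest member per exon length, at 0.814% of the summed RPKM of the family in monocytes and 5.01% in macrophages. That sum was 488 in monocytes and 306 in macrophages.

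**Figure D3:**
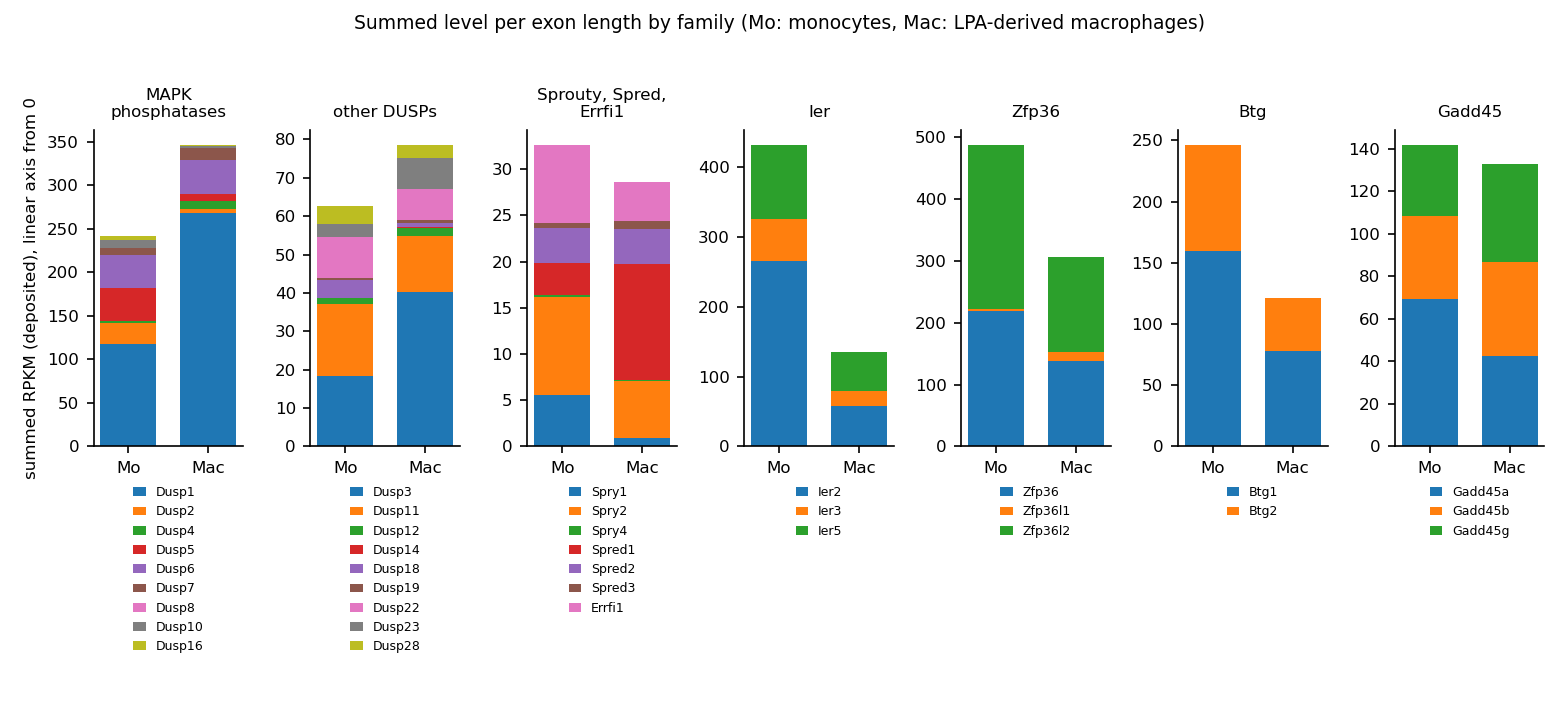
Summed deposited RPKM of each family in monocytes (Mo) and LPA-derived macrophages (Mac), 1 library each, on linear axes from 0 that differ between panels; colours are genes. Dusp1 fills 48.9% of the MAPK phosphatase bar in monocytes and 77.2% in macrophages, and the Ier bar stands at 432 RPKM in monocytes and 135 RPKM in macrophages.

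Several of the feedback genes carry a short AU-rich motif of the kind that Zfp36 proteins bind, and sites from several of the families are shown. A match describes these letters and is not a site of binding. The 7 letters TATTTAT were searched on the sense strand in the last 500 bases of the 3′ untranslated region, in 1 GENCODE M21 transcript a gene. Of 30 genes past the floor with a region of that length, 9 held the motif, against 1097 of 7329 genes. Capitals mark the motif in the sites below, given 5′ to 3′ on GRCm38. They lie at chr17:26505870-26505898 (minus strand), chr2:127338304-127338332 (plus), chr3:37644409-37644437 (plus), chr17:35822481-35822509 (plus), chr7:28376966-28376994 (minus) and chr12:80108167-80108195 (minus), in the order listed.
Dusp1: gtttttaccttTATTTATttttgtgtagg
Dusp2: acagcactttaTATTTATatagaacattg
Spry1: attgtaaagaaTATTTATtatgcgaatct
Ier3: tgtctaattaaTATTTATgTATTTATgta
Zfp36: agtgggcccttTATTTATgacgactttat
Zfp36l1: aactgttggatTATTTATtttagaaattc

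The other genes with the motif in the last 500 bases were Spry2, Errfi1 and Gadd45a. The motif with a further T on each side was searched over the whole region. Among the 9 genes, only Dusp1 (2 copies), Zfp36 and Zfp36l1 (1 each) held it. Of the 9 genes, 2 were higher in macrophages (Dusp1 and Zfp36l1), 4 were lower (Dusp2, Spry1, Errfi1 and Ier3) and 3 lay within 2-fold, beside 156 higher, 231 lower and 710 within 2-fold of the 1097 genes with the motif. The median log2 ratio of the 9 genes was -0.81, beside -0.44 for the other feedback genes. It was -0.25 and -0.16 for all genes with and without the motif in those 500 bases. Genes with copies only elsewhere in the region counted as without it. These were Dusp11 (4 copies), Dusp18, Spred1 and Zfp36l2 (3 each), and Btg2 and Spred3 (1 each). Ier3 held 4 copies in the window and Zfp36 held 3. The promoter of Zfp36 also holds a CArG box (chr7:28379267-28379296, minus strand), in the stretch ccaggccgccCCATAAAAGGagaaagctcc with the box in capitals.

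Of 14 messenger RNAs described in the literature as bound by Zfp36 proteins, 11 passed the floor, 8 were at least 2-fold lower in macrophages (72.7%, against 19.9% of all genes) and none was higher (median log2 ratio -1.46). The list holds Ier3, a gene already counted above. The lowest were Ccl2, a monocyte chemoattractant (103.7 CPM in monocytes against 4.54 CPM in macrophages), Ccl3 (208.9 and 52.1 CPM), the kinase gene Pim1 (699.2 and 202.4 CPM) and Il6 (7.62 and 1.67 CPM). Vegfa stood at 106.9 and 192.9 CPM and was within 2-fold. After centring on the median of all genes 1 of the 11 was higher and 6 were lower, against 17.4% and 14.6% of all genes.

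Btg1 and Btg2 encode antiproliferative proteins that bind the CCR4-NOT deadenylase, and both were lower by about 2-fold. Btg1 (chromosome 10, 96617001 to 96622813) had 11900 reads (954 CPM) in monocytes and 7394 reads (442 CPM) in macrophages, 2.16-fold lower (2.10 to 2.22). Btg2, a target of p53 as well (chromosome 1, 134075170 to 134079120), had 282.6 and 135.1 CPM, 2.09-fold lower (1.98 to 2.21). Their shares of the summed RPKM hardly moved, with Btg1 at 64.9% in monocytes and 64.2% in macrophages. Of 16 genes of the deadenylase and related factors past the floor, 13 lay within 2-fold, 3 were at least 2-fold lower (18.8%, against 19.9% of all genes) and none was higher (median log2 ratio -0.78). The 3 were Tob1, a relative of the Btg genes (88.6 and 28.4 CPM), Pan2 (69.99 and 23.1 CPM) and the scaffold gene Cnot1 (296.4 and 131.9 CPM). The deadenylase gene Cnot7, which Btg proteins bind, stood at 37.8 and 19.01 CPM.

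The Gadd45 genes encode stress sensors that bind the kinase MAP3K4 upstream of p38 and JNK, and all 3 lay within 2-fold. Gadd45a (chromosome 6, 67035096 to 67037457) had 145.8 CPM in monocytes against 85.1 CPM in macrophages, 1.71-fold lower (1.598 to 1.84). Gadd45b (chromosome 10, 80930091 to 80932204) had 58.8 and 63.4 CPM, and the interval of its ratio, 0.979-fold to 1.18-fold, includes no difference. Gadd45g (chromosome 13, 51846678 to 51848468) had 46.8 and 61.5 CPM, 1.31-fold higher in macrophages (1.19 to 1.46). In RPKM the order of the genes turned around, from Gadd45a, Gadd45b, Gadd45g in monocytes (69.4, 39.0 and 33.5) to Gadd45g, Gadd45b, Gadd45a in macrophages (46.2, 44.1 and 42.5). The summed RPKM of the family was 142 and 133.

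By CPM, other p53 targets went in both directions. All 12 such genes reached the floor, and 5 had a level at least 2-fold higher in macrophages while 2 were lower (41.7% and 16.7%, against 13.8% and 19.9% of all genes, median log2 ratio 0.87). The largest differences were those of the sestrin gene Sesn1 (26.5 CPM in monocytes against 194 CPM in macrophages), Phlda3 (1.36 and 13.2 CPM), Zmat3 (3.77 and 21.1 CPM) and the kinase gene Plk2 (106 and 348.3 CPM). The lower ones were Cdkn1a and Bbc3. After centring on the median of all genes 6 of the 12 were higher and none was lower, against 17.4% and 14.6% of all genes.

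Most genes of the MAP kinase cascades lay within 2-fold. Of 51 listed kinases and adaptors 50 were found in the table and 47 passed the floor (median log2 ratio -0.22). Among the 47, 2 were at least 2-fold higher in macrophages and 6 were lower (4.26% and 12.8%, against 13.8% and 19.9% of all genes). The other 39 lay within 2-fold. The ERK gene Mapk3 (203.2 CPM in monocytes against 296.9 CPM in macrophages) and the ERK activators Map2k1 (155.8 and 161.8 CPM) and Map2k2 (115.1 and 124.8 CPM) were among the 39. So were the p38 gene Mapk14 (359.8 and 200.6 CPM) and the JNK gene Mapk9 (54.8 and 67.3 CPM), whereas the JNK gene Mapk8 stood at 42.3 and 15.96 CPM, 2.65-fold lower (2.28 to 3.08). The p38 gene Mapk13 was lower as well, at 26.9 and 12.4 CPM, 2.17-fold (1.82 to 2.59).

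The 4 genes with the widest differences were of several kinds. Pea15a, whose product holds ERK in the cytoplasm, had 28.2 CPM in monocytes against 352.9 CPM in macrophages, 12.5-fold higher (11.2 to 13.96). Rasa1, a GTPase activator that turns Ras off, had 33.0 and 115.8 CPM, 3.51-fold higher (3.15 to 3.91). Map2k6, a kinase that activates p38, had 19.6 and 2.57 CPM, 7.61-fold lower (5.48 to 10.8). Rps6ka5, a kinase of chromatin activated by p38 and ERK, had 526 and 184 reads, 3.83-fold lower (3.24 to 4.56). Mapkapk2, the p38-activated kinase that phosphorylates Zfp36, was named after its values were seen; it had 777.9 and 255.5 CPM, 3.05-fold lower (2.94 to 3.16).

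ERK output genes outside the 36 were also split. Of 10 genes 7 passed the floor, and their median log2 ratio was -1.02. In macrophages 2 of the 7 were higher and 4 lower by at least 2-fold (28.6% and 57.1%, against 13.8% and 19.9% of all genes). Etv5, an ETS factor (37 and 782 reads, 15.8-fold, 11.3 to 22.6), and the cyclin gene Ccnd1 (53 and 527 reads, 7.42-fold, 5.58 to 10.03) were higher. Fosl1 (221 and 26 reads, 11.4-fold, 7.57 to 17.8) and the receptor gene Epha2 (219 and 73 reads, 4.02-fold, 3.07 to 5.32) were lower.

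**Figure D4:**
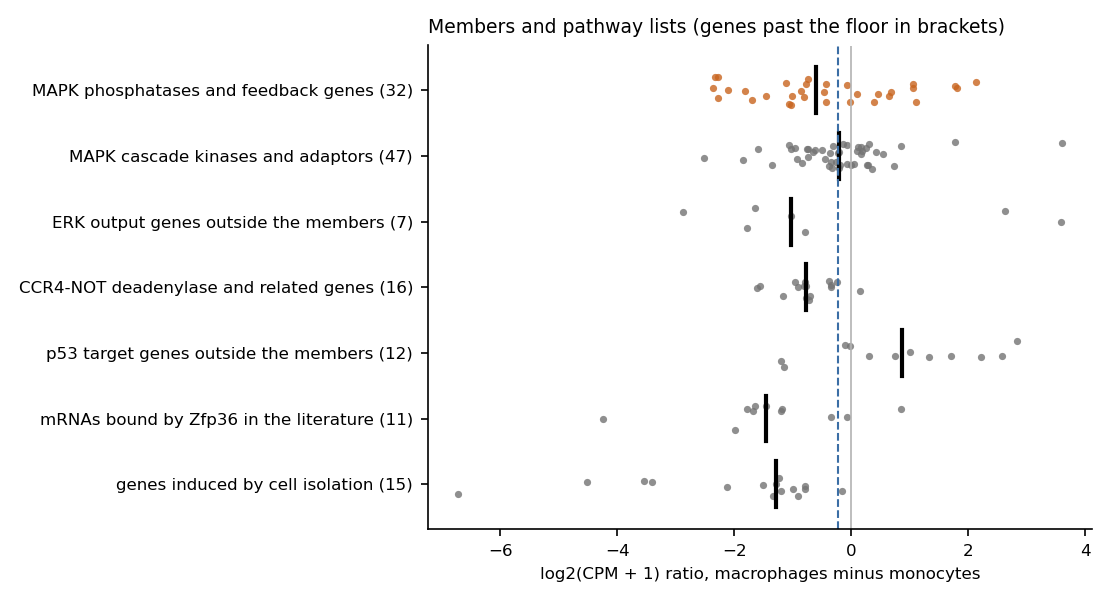
Log2 ratio of CPM + 1 (macrophages minus monocytes) of each gene past the floor, for the 36 feedback genes in the top row and 6 related lists under it; black bars are medians and the dashed line is the median of all genes, -0.23. The cascade kinases centre on that line (median -0.22), the Zfp36-bound RNAs lie left of it (-1.46) and the p53 targets right of it (0.87).

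Intron reads, which come mostly from unspliced RNA, gave a second view of the same genes. Their share of gene reads was 14.1% for monocytes and 9.9% for macrophages, and they were scaled by the same exon totals. Of the 32 genes, 19 had at least 50 intron reads over both libraries. Intron reads of 2 of the 19 were at least 2-fold higher in macrophages, Dusp1 and Dusp4, against 8.82% of 8250 genes with as many intron reads. Those of 8 were at least 2-fold lower, against 39.1% of these genes: Dusp3, Dusp5, Dusp10, Dusp16, Spry2, Spred2, Errfi1 and Zfp36l2. The median difference between the log2 ratio of exon reads and that of intron reads was 0.02 for the 19 genes and 0.47 for the 8250 genes.

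For most of the phosphatases exon and intron reads had the same direction. Dusp1 had 34 intron reads in monocytes and 280 in macrophages, a log2 ratio of 2.60 (2.10 to 3.18) beside 1.11 for its exon reads. Its exon ratio was thus smaller than its intron ratio, by 1.49 on the log2 scale (interval of the difference -2.07 to -0.99), and 1.68% of the 8250 genes had a lower difference. Intron reads per 100 exon reads of Dusp1 were 0.719 in monocytes (0.497 to 1.01) and 2.04 in macrophages (1.81 to 2.30). Dusp1 runs from 26505590 to 26508519, and its deposited exon length is 2697 bases. Few of its bases thus count as intron, and the part of this in the difference was not tested. Dusp4 had 7 and 60 intron reads and Dusp5 had 174 and 37, with log2 ratios of 2.59 and -2.64 beside exon ratios of 2.29 and -2.41. Dusp16 had 257 and 30 intron reads, a log2 ratio of -3.50 beside -1.78 for exons.

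Exon ratios above intron ratios, the reverse of Dusp1, were common among all genes (median difference 0.47). Among the 19 genes, Dusp3, Spred1, Spred2 and Dusp16 had the largest such differences. Those of Spred1, Spred2 and Dusp16 (1.81, 1.79 and 1.72) exceeded those of 93.6%, 93.3% and 92.5% of the 8250 genes. Dusp3 had 306 intron reads in monocytes and 139 in macrophages, a log2 ratio of -1.56 (-1.86 to -1.27), while its exon reads had a log2 ratio of 1.06. The difference of 2.62 (2.31 to 2.94) exceeded that of 98.7% of the 8250 genes. Per 100 exon reads, Dusp3 had 23.9 intron reads in monocytes (21.1 to 27.1) and 3.89 in macrophages (3.26 to 4.61). An antisense gene that overlaps an exon of Dusp3, Gm20659, had 3 and 11 exon reads. Spred1 had 66 and 88 intron reads, which is level after scaling (log2 ratio -0.01), beside an exon ratio of 1.80. Spred2 had 251 and 92 intron reads (log2 ratio -1.87) beside an exon ratio of -0.08. The monocyte library was the one with more intron reads over all genes, and the part of that in these differences was not tested.

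Among the rest, Gadd45a had 39 and 51 intron reads and Gadd45g 29 and 70, with log2 ratios of -0.04 and 0.83 beside exon ratios of -0.78 and 0.39. Btg1 had 113 and 94, Gadd45b 93 and 133, Dusp6 34 and 68, Dusp11 128 and 137, Dusp12 34 and 68, and Dusp22 240 and 288 intron reads. Exon and intron ratios had opposite signs in 3 of the 19 genes, Dusp3, Dusp6 and Spred1, or 15.8%, against 24.8% of the 8250 genes. Both intervals of Dusp6 and the intron interval of Spred1 include no difference.

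**Figure D5:**
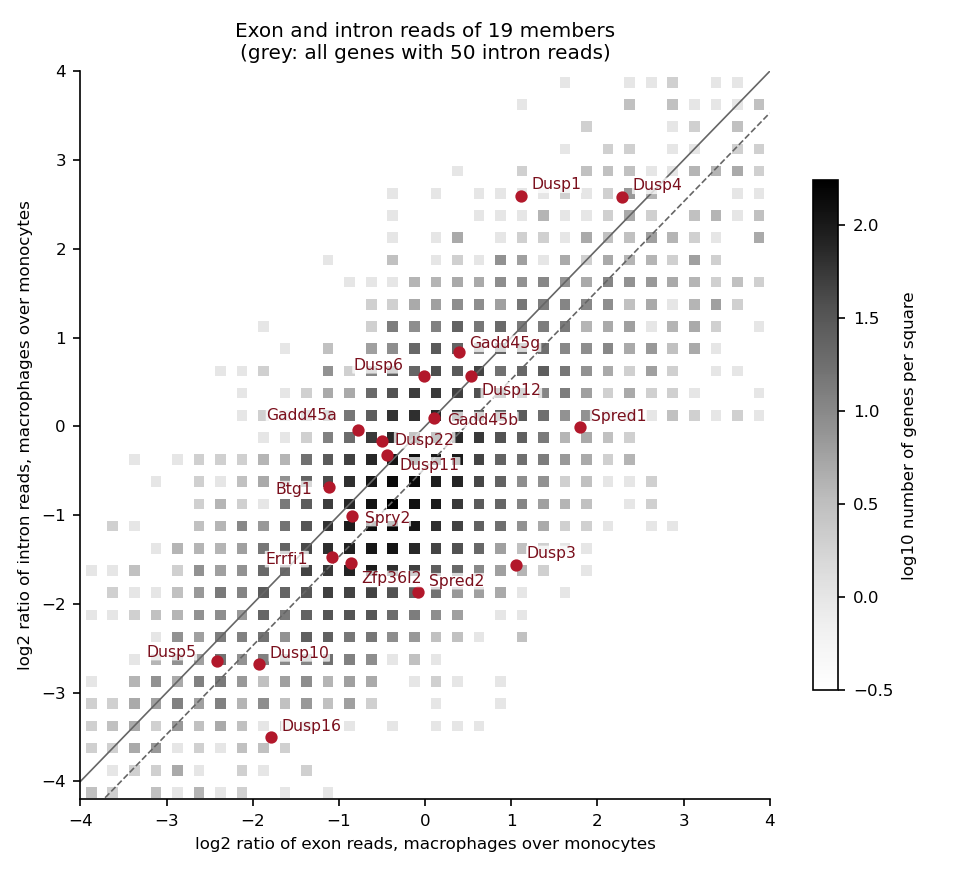
Log2 ratio of intron reads against log2 ratio of exon reads (macrophages over monocytes, both scaled by exon totals) for 19 feedback genes (red) over 8250 genes with at least 50 intron reads (grey squares, shaded by number of genes). The solid line marks equal ratios and the dashed line the median difference of all genes, 0.47; Dusp1 lies above both lines, and Dusp3, Spred1, Spred2 and Dusp16 lie farthest below.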

How the data were processed

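One deposited table gave all values. Its columns, per the file headers, are counts of unique reads over exons, introns, exon junctions and genes, and RPKM values made by the authors, which equal exon reads per exon length and 1 library total (0 genes off by more than 1%). Exon lengths in bases are deposited beside them, per the file headers. The deposited fold change of normalized values is a signed score, minus where monocytes are higher, per the file headers. No source used here names the mapper or the use of strand. Per the submitters' processing notes the build was mm9. The deposited coordinates are on GRCm38, since 40736 of 47224 genes matched in GENCODE M21 (86.3%), and 29 of the 36 described here, had identical ones once the starts, which count from 0, were raised by 1. Libraries were made with a NEBNext Ultra kit from Trizol RNA, per the labels' protocols.

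Exon counts were scaled to CPM by the library's exon total. Log2 ratios are of CPM + 1, the floor was 5 CPM in at least 1 library (62.4 and 83.6 reads), and plain CPM ratios have exact Clopper-Pearson intervals conditional on the sum. Intron and exon log2 ratios were taken with 0.5 reads added, and the interval of their difference is the exact conditional one of the odds ratio. Since reads carry no molecular identifiers, intervals cover counting error only. The analysis used Python 3.11.15, scipy 1.17.1 and, for the trimmed mean factor alone, edgeR 4.0.16. Genes and lists were chosen with earlier results of these data known. From each related list up to 4 genes with the largest absolute log2 ratio were named, with Mapk3, Mapk8, Mapk9, Mapk14, Map2k1 and Map2k2 whatever their values (1 further gene of this rule is not reported here); Vegfa, Cdkn1a, Bbc3, Mapkapk2, Mapk13, the isolation genes within 2-fold and single cell type markers were named after their values were seen. Cnot9 was found under its older name, Rqcd1. Alternatives were other pseudocounts, floors, scalings, kinds of reads, thresholds and the deposited fold change.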

Additional observations from a re-analysis of the deposited data

How the results depend on the processing

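Counts of members past 2-fold stayed within 1.5 times of 6 higher and 12 lower under every pseudocount, floor and scaling tried, with gene reads and with the deposited fold change (5 to 7 higher and 8 to 13 lower). The low end, 8 lower, came with centring, the trimmed mean factor, totals without the 20 highest genes and the deposited fold change. Of all genes 14.6%, 15.2%, 16.2% and 16.2% were then lower. The number of lower members thus depends on scaling. At 4-fold 1 gene was higher and 5 were lower, against 5.92% and 6.7% of all genes. With junction reads, an alternative chosen after seeing the data, 25 members passed the floor, 4 were higher and 7 lower, against 13.4% and 19.9% of all genes. Ier2 and Ier5 have no junction reads, other members with few of them fell under that floor, and the cause of the remaining changes was not tested. The median log2 ratio ranged from -0.81 (floor of 25 CPM) to -0.37 (centred). Of the 18 members past 2-fold, 11 kept their call under all alternatives run for single genes (8, or 7 for Ier2), and none changed sign. With junction reads Dusp3, Dusp23, Dusp18, Errfi1 and Btg1 lost theirs, while Zfp36l2 (log2 ratio -1.17) and Dusp28 (-1.44) became lower. These calls of single genes used no floor for junction reads. Under it lay Dusp28 (12 and 1 junction reads), Dusp18 (11 and 4), Dusp23 (14 and 26) and Spry1 (11 and 3). Dusp28 is therefore not among the 7 lower members. Dusp3, Ier5 and Btg2 lost theirs with gene reads, and Dusp23 and Errfi1 with a pseudocount of 5 CPM. Errfi1, Ier5, Btg1 and Btg2 lost theirs under centring, the trimmed mean factor, totals without the 20 highest genes and the deposited fold change. Centring moves all log2 ratios by 0.23. At minimums of 20 and 100 intron reads the median exon minus intron difference was 0.02 and 0.12. No paired analysis was possible because each group is 1 library without a replicate number. Few reads limit Dusp12, Dusp23, Dusp28 and Spred3.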

Other observations

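The table holds 6 further dual-specificity phosphatase genes, looked up after the values of the others were seen, and none reached the floor of 5 CPM. Dusp9, which encodes another ERK phosphatase, had 8 exon reads in monocytes and 59 in macrophages, and Dusp13 had 1 and 29. Dusp27 had 0 and 6 reads, Dusp15 had 0 and 2, and Dusp21 and Dusp26 had none in either library.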
